A study of Rattus norvegicus with 6 samples.

Results

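The cells described here are pancreatic fibroblasts of the rat that carried more transcripts of Gfpt2, Tnfrsf11b and Sema3c than of the genes of the other fibroblast classes. They were chosen by measured values in 2 steps. A barcode with at least 200 genes and at most 25% mitochondrial UMIs (unique molecular identifiers, the count of captured transcripts) was taken as a fibroblast when it held at least 3 of the 6 genes Col1a1, Col1a2, Col3a1, Dcn, Lum and Pdgfra and no UMI of the leukocyte gene Ptprc. Among fibroblasts, a member had at least 2 UMIs of Gfpt2, Tnfrsf11b and Sema3c together, and this sum was larger than that of Pi16 and Clec3b and than that of C7, Spon1 and Inmt. This left 4918 members among 12077 fibroblasts and 75981 barcodes. The sums of the other genes gave 2911 Pi16 Clec3b fibroblasts and 2245 C7 Spon1 Inmt fibroblasts, the comparators used below, and 2003 fibroblasts that fell in none of these classes.

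Fibroblasts make the collagen and proteoglycan matrix between the lobules, ducts and islets of the pancreas. Gfpt2 starts the hexosamine pathway, which supplies the UDP-sugars for hyaluronan, other glycans and protein glycosylation. Tnfrsf11b encodes osteoprotegerin, a secreted decoy receptor for the cytokines RANKL and TRAIL, and Sema3c is a secreted guidance cue read by neuropilins and plexins. Has1, a hyaluronan synthase of the cell membrane, and Adamts5, an aggrecanase that cuts aggrecan and versican, were named with the class but were not read by its rule.

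Single-cell RNA sequencing with the 10x Genomics 3' kit was performed on pancreas cells of 6 male Wistar rats in 3 groups of 2. Young rats were 2 months old and on normal chow. Old rats were 20 months old after 18 months on the normal diet, and HFHF-old rats were 20 months old after 18 months on a high-fat high-fructose diet. Islets were isolated with collagenase P and a density gradient in all groups, so the fibroblasts are those that came along with islets, and no group carried a transgene or a drug. Per-rat values below are given in the order young 1 and 2, old 1 and 2, HFHF-old 1 and 2.

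The libraries held 77387928 to 166875258 UMIs. The median depth of a member was 6940, 8644, 10597.5, 4000, 14366 and 10181 UMIs, and UMIs summed over members came to 1358068 in young 2, 1459124 in old 2 and up to 36962134 in HFHF-old 1. Any 2 libraries shared 20 to 66 cell barcodes, and 1 member barcode was shared, between young 1 and HFHF-old 1. Young 2 stood apart, since 40.6% of its 69 members had over 10% of their UMIs in acinar and islet marker genes. The summed islet markers of its members came to 421343 CPM (a gene's UMIs scaled to 1000000 UMIs of the same summed cells), against 1383 to 138915 in the other rats, and its acinar markers to 95799 CPM against 801 to 43397. The 10% limit was passed in young 2 by 75.3% of Pi16 Clec3b, 15.6% of C7 Spon1 Inmt and 90.3% of unclassed fibroblasts. In HFHF-old 1 it was passed by 26.7, 5.25 and 83.8% of these, against 8.43% of members. Across all rats, 279 members (5.67%) were over this limit, and 72 (1.46%) held at least 3 of 9 mesothelial markers, against 7 such barcodes among the other fibroblasts. Those 72 barcodes held 99.2% of the members' UMIs of Wfdc21 and 70.0% of those of Msln. Results were therefore also computed without both kinds of barcode, a choice made after the values had been seen, which left 4568 members (1756, 38, 278, 298, 1770 and 428). Doublets were not removed and free RNA was not subtracted.

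**Figure D1:**
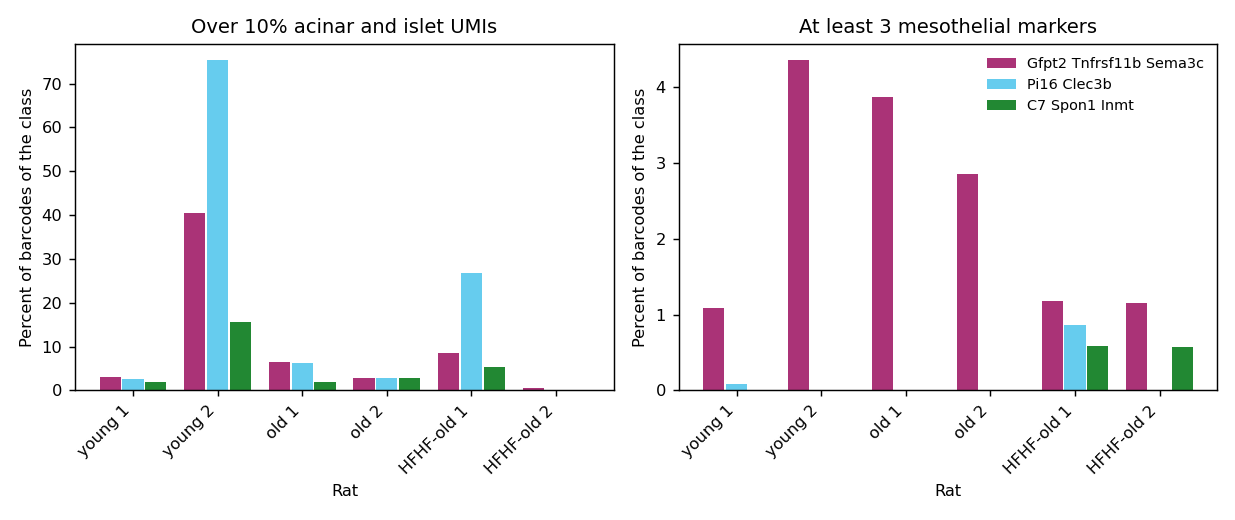
Percentage of barcodes in each rat and fibroblast class with over 10% of their UMIs in acinar and islet markers (left) and with at least 3 of 9 mesothelial markers (right). Young 2 has the highest share of members over the first limit, 40.6%, and its Pi16 Clec3b fibroblasts reach 75.3%. Mesothelial markers were found mostly in members.

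The genes that the rule read are given as a description. In members, Gfpt2 stood at 1847, 574, 2742, 2489, 3294 and 5325 CPM, Tnfrsf11b at 1401, 488, 1457, 1262, 974 and 1537 CPM, and Sema3c at 1836, 583, 1680, 1798, 2095 and 2740 CPM. Young 2 was the lowest for each of the 3 genes, and without barcodes rich in other cell types its levels were 2226 CPM for Gfpt2, 1782 CPM for Tnfrsf11b and 2089 CPM for Sema3c. On that basis Gfpt2 ran from 2056 and 2226 CPM in the young rats through 3800 and 3041 CPM in the old to 4223 and 5424 CPM in the HFHF-old, and the 3 groups did not overlap. Tnfrsf11b then spanned 1243 to 1987 CPM and Sema3c 2020 to 2768 CPM. The order of Gfpt2 comes from a gene that selected the members. It was not particular to them, since C7 Spon1 Inmt fibroblasts stood at 311, 109, 368, 341, 678 and 545 CPM, also without overlap. In Pi16 Clec3b fibroblasts the old and HFHF-old rats overlapped. Of all genes tested, 16.2% were higher in both old than in both young rats, and 16.9% in both HFHF-old than in both old rats.

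Within members, the 3 genes did not keep the same proportions in every rat. Gfpt2 gave 36.3, 34.9, 46.6, 44.9, 51.8 and 55.5% of their joint UMIs, lowest in the young and highest in the HFHF-old rats. Tnfrsf11b gave 27.5, 29.7, 24.8, 22.7, 15.3 and 16% in the opposite order of groups, and Sema3c 36.1, 35.5, 28.6, 32.4, 32.9 and 28.5%. All 3 genes were detected in the same barcode in 85.7, 59.4, 87.4, 62, 91.8 and 89.0% of members, and the lower shares were in young 2 and old 2. The median joint count was 32, 26, 69.5, 20, 103 and 82 UMIs per member.

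The members were not free of the other classes' genes. At least 2 UMIs of Pi16 and Clec3b were found in 91.3, 65.2, 92.6, 73.7, 93.5 and 95.2% of members, and at least 2 of C7, Spon1 and Inmt in 79.4, 46.4, 83.5, 51.3, 76.6 and 73.6%. Pi16, a marker of adventitial fibroblasts, stood at 2498, 2343, 2858, 2503, 1668 and 3733 CPM in members without the barcodes rich in other types. These genes were read by the rule, so their values describe the members only. Barcodes close to the limit, in which the members' sum led by 1 to 5 UMIs, numbered 526, 34, 54, 143, 174 and 41, and a further 566, 84, 72, 172, 78 and 66 fibroblasts with at least 2 UMIs were tied or behind by up to 5. Gfpt2 stood at 851, 373, 783, 1211, 262 and 1585 CPM just inside and at 826, 338, 891, 1224, 633 and 2064 CPM just outside.

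The matrix genes that identify fibroblasts were present in members of every rat but differed widely between rats. Dcn, the proteoglycan decorin, stood at 10279, 11097, 14115, 13196, 8275 and 11571 CPM without the barcodes rich in other types. Col1a1, a chain of collagen I, stood at 4917, 6336, 1892, 1370, 3342 and 399 CPM, and Col3a1, collagen III, at 11916, 12395, 4058, 2817, 7912 and 1230 CPM. Both collagens were highest in the young rats, and HFHF-old 2 was the lowest and HFHF-old 1 the highest of the 4 aged rats.

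Has1 and Adamts5 were not read by the rule, and both were highest in members among the 3 classes in each of the 6 rats. Has1 stood at 603, 112, 513, 485, 909 and 1127 CPM in members, at 332, 45.3, 358, 256, 304 and 560 CPM in Pi16 Clec3b fibroblasts and at 247, 59.4, 270, 210, 483 and 176 CPM in C7 Spon1 Inmt fibroblasts of the same rats. The log2 difference from Pi16 Clec3b fibroblasts was 1.03 ± 0.12 (SE, 6 rats; edgeR adjusted p = 0.00339) and from C7 Spon1 Inmt fibroblasts 1.56 ± 0.23 (adjusted p = 0.000947). The values were 1.09 and 1.80 without the barcodes rich in other types.

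Adamts5 stood at 912, 154, 489, 645, 691 and 1754 CPM in members, at 724, 132, 465, 458, 483 and 1062 CPM in Pi16 Clec3b fibroblasts and at 476, 122, 134, 104, 305 and 394 CPM in C7 Spon1 Inmt fibroblasts. The log2 difference from C7 Spon1 Inmt fibroblasts was 1.81 ± 0.21 (edgeR adjusted p = 0.000235). The difference from Pi16 Clec3b fibroblasts was 0.41 ± 0.10 (adjusted p = 0.0368), which is under the limit of 1.5 times used to call a gene. Adamts5 was thus called against the C7 class and not against the Pi16 class.

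At least 1 UMI of Has1 was found in 68.3, 37.7, 78.7, 43.4, 87.0 and 80% of members and in 8.14, 1.41, 5.32, 1.66, 22.6 and 2.23% of Ptprc-positive leukocytes, whose median depth was 4843.5, 6519, 8847, 3331, 10408 and 8649 UMIs. Barcodes under 2000 UMIs were then left out and the others thinned to 2000 UMIs. The shares were 50.2, 28.8, 48.0, 39.6, 63.9 and 59.2% in members and 4.67, 0.461, 2.17, 0.845, 9.40 and 1.11% in leukocytes. The share in members was above that in leukocytes in each rat. HFHF-old 1, the library with the most members, also had the highest share in leukocytes. The same held for 2 of the genes the rule read, with Gfpt2 in 38.6% and Sema3c in 30.1% of its leukocytes against 4.24 to 15.1% and 3.74 to 17.7% in the other rats. By level, Gfpt2, Sema3c and Tnfrsf11b were each highest in leukocytes of HFHF-old 1, at 493, 324 and 135 CPM. Young 1 was close for Tnfrsf11b, at 123 CPM. Not every gene the rule read was highest there, since Clec3b in leukocytes was at 83.4 CPM in young 2 and 51.8 CPM in HFHF-old 1.

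**Figure D2:**
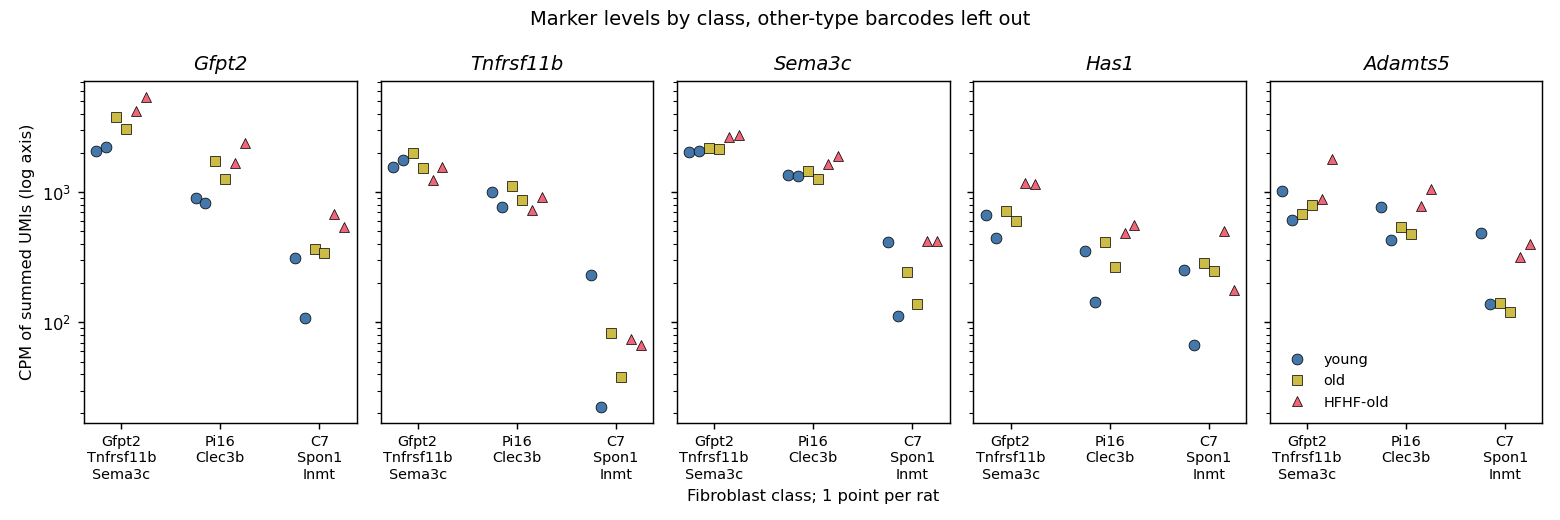
Level of Gfpt2, Tnfrsf11b, Sema3c, Has1 and Adamts5 in each rat (CPM, log axis) by fibroblast class, without the barcodes rich in other cell types. Has1, which the rule did not read, spans 448 to 1171 CPM in members, and is higher there than in either comparator in each rat.

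The share of members among fibroblasts was compared between groups for age and for the diet. Members made up 42.8, 5.88, 27.5, 14.5, 76.3 and 57.2% of fibroblasts (1831 of 4278, 69 of 1174, 310 of 1126, 316 of 2174, 1957 of 2564 and 435 of 761). The 95% Wilson intervals, which cover counting error only, were 41.3 to 44.3, 4.67 to 7.37, 25 to 30.2, 13.1 to 16.1, 74.6 to 77.9 and 53.6 to 60.6%. Both HFHF-old rats were above the other 4 rats, while the young rats were the highest and the lowest of those 4.

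The mean was 66.7% ± 13.6 (SD, n = 2) in HFHF-old rats and 21.0% ± 9.19 in old rats, a difference of 1.72 on the log2 scale with an exact permutation p of 0.333, the smallest that 2 rats against 2 allow. It was 24.3% ± 26.1 in young rats, above the mean of the old rats, while the mean of the log2 shares was higher by 0.33 in old rats (exact permutation p = 1). The direction between old and young rats thus depends on the scale. Neither of these 2 comparisons could have passed 0.05. With barcodes under 2000 UMIs left out, the others thinned to 2000 UMIs and the rule applied anew, the shares were 43.9, 6.32, 24.8, 17.9, 76.5 and 53.3%. Old 2 then had 948 fibroblasts. Of the members deep enough, 30 of 66 in young 2 and 1588 of 1897 in HFHF-old 1 were members again. Without the barcodes rich in other types the shares were 42.9, 13.5, 26.5, 14.2, 80.4 and 56.8%, in which old against young turned to -0.31. As parts of one total, Pi16 Clec3b fibroblasts made up 27.9, 58.5, 24.2, 23.4, 4.52 and 17.5% and C7 Spon1 Inmt fibroblasts 13.9, 3.83, 44.2, 27, 13.4 and 23.1%. Of all barcodes kept, members were 10.5, 0.668, 4.14, 1.92, 15.6 and 3.71%, and on this scale HFHF-old 2 lay between the old rats. Gfpt2 and Sema3c were most frequent in leukocytes of HFHF-old 1, as given above. The part of their free RNA in the share of that rat was not tested.

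**Figure D3:**
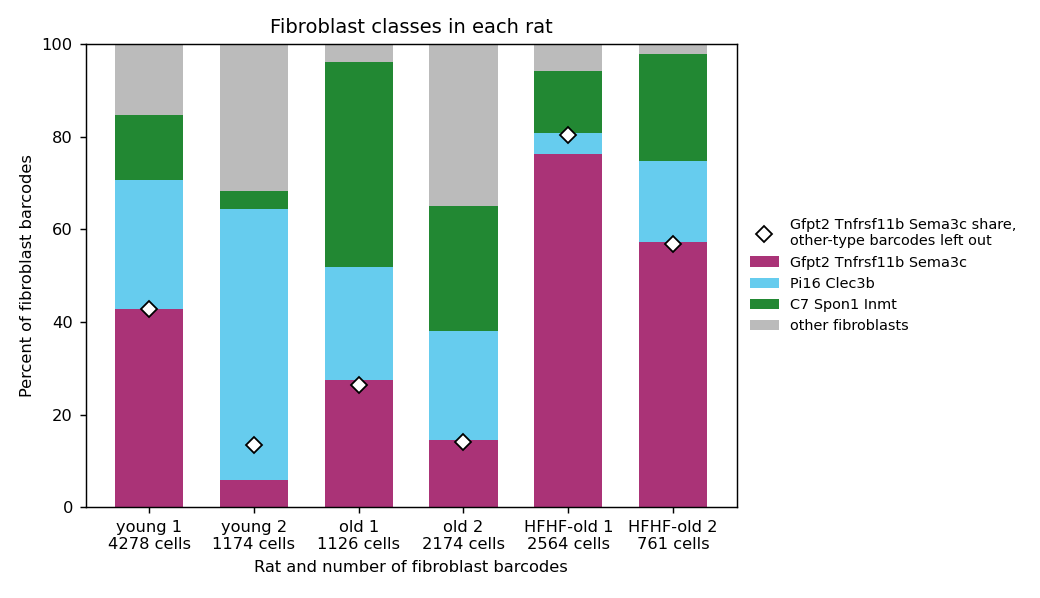
Percentage of fibroblasts in each class for the 6 rats. Members account for 76.3 and 57.2% in the HFHF-old rats and for 5.88 to 42.8% in the other rats.

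Members were next compared with Pi16 Clec3b fibroblasts of the same rats, the class whose genes most of them also carried. For each rat the UMIs of a class were added up, and a gene was called when its adjusted p was under 0.05 and its levels differed by over 1.5 times. Since both classes were cut from UMIs of the same barcodes, a call here says how evenly a difference recurred over the 6 rats and is no independent support for the class. Of 11004 genes tested, 371 were called (3.37%), 229 higher (2.08%) and 142 lower (1.29%) in members. Without the barcodes rich in other types, 225 of 9961 were called (2.26%), 112 higher (1.12%) and 113 lower (1.13%). These shares over all genes are the background for the counts of listed genes against this class. Barcodes under 2000 UMIs were then left out, the others thinned to 2000 UMIs and the classes assigned anew. In these partly different cells the split was 83 higher and 142 lower of 6770, so the larger number of higher genes was not kept. Median depth was greater in members than in Pi16 Clec3b fibroblasts in each of the 6 rats, such as 14366 against 9898 UMIs in HFHF-old 1, and its part in the calls was not tested beyond this thinning.

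The largest differences lay in genes held by few barcodes. Wfdc21, a secreted protein with a whey acidic protein domain, was higher by 6.96 ± 0.25 on the log2 scale, with 77.9 to 302 CPM in members and 0 to 2.19 CPM in Pi16 Clec3b fibroblasts. Pkhd1l1 (4.00 ± 0.60), Nkain4 (3.57 ± 0.44) and Msln (2.04 ± 0.38), the last the mesothelial surface protein mesothelin, were called as well. Mesothelial markers, as a list, summed to 212 to 468 CPM in members and 51.9 to 250 CPM in Pi16 Clec3b fibroblasts, and 3 of 4 tested were called higher. Without the barcodes rich in other types these 4 genes were no longer tested, and Cav1, the coat protein of caveolae, moved from 2.04 ± 0.33 to 0.19 ± 0.30, Cdh11, a mesenchymal cadherin, from 1.63 ± 0.21 to 0.11 ± 0.14, Sbsn from 1.11 to 0.36 and Vsnl1 from 1.10 to 0.35.

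Other differences were of similar size with and without those barcodes. Ptx3, a pentraxin that binds into hyaluronan matrix, stood at 135, 62.7, 26.6, 57.5, 97.5 and 91.2 CPM in members and at 65.6, 12.7, 5.82, 19.0, 9.68 and 43.0 CPM in Pi16 Clec3b fibroblasts when they were left out. It was higher in 6 of 6 rats, by 1.49 ± 0.19 on the log2 scale (adjusted p = 0.000254), against 1.47 with all barcodes. Ptgs2, the inducible prostaglandin synthase COX-2, differed by 1.20 ± 0.12 (1.11 with all barcodes), Thbs1, the matricellular protein thrombospondin 1, by 1.11 ± 0.20, Pi15 by 1.07 ± 0.12, and Vcl, the focal adhesion protein vinculin, by 0.95 ± 0.09. Wt1, a transcription factor that mesothelial cells also use, differed by 0.86 ± 0.15.

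Of the genes of hyaluronan synthesis and binding, 5 were higher and 1 was lower of 8 without the barcodes rich in other types (median log2 difference 0.68), and 3 were higher and 1 lower of 8 with all barcodes (median 0.59, against -0.02 over all genes). Beside Has1, the 5 were the synthase Has2 (0.77 ± 0.12), Tnfaip6, which transfers heavy chains onto hyaluronan (0.84 ± 0.12), the hyaluronan-binding proteoglycan Vcan (0.59 ± 0.07) and the hyaluronan receptor Cd44 (1.07 ± 0.16). Cd44 was higher in 5 of 6 rats, and in young 2 it stood at 8.95 CPM in members against 17.2 CPM in Pi16 Clec3b fibroblasts. Lyve1, a hyaluronan receptor of lymphatic endothelium and tissue macrophages, was lower, by 1.73 on the log2 scale with all barcodes. Tnfaip6 stood at 469, 194, 295, 437, 907 and 280 CPM in members and 297, 115, 154, 234, 310 and 230 CPM in Pi16 Clec3b fibroblasts, with members higher in every rat.

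Of the hexosamine and UDP-sugar genes, 2 were higher and 1 lower of 15 (median 0.06). Ugdh, which makes the UDP-glucuronate used for hyaluronan, stood at 965, 170, 639, 716, 1605 and 1644 CPM in members and 637, 92.0, 331, 383, 469 and 1204 CPM in Pi16 Clec3b fibroblasts. It was higher in 6 of 6 rats, by 0.94 ± 0.13. Hk2, a hexokinase, was higher by 0.59 ± 0.13, and Amdhd2, the deacetylase that runs against the synthesis of UDP-N-acetylglucosamine, was lower, with -0.98 ± 0.18. Uap1, the enzyme that forms UDP-N-acetylglucosamine, differed by 0.26 ± 0.13 and Gnpnat1, which acetylates glucosamine phosphate, by 0.23 ± 0.09. Neither was called.

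Among cytokines, chemokines and NF-kB targets, 3 genes were higher and 1 lower of 18 with all barcodes, and 6 higher and 1 lower without those rich in other types. The higher genes were Ptgs2, Il6 (0.98 ± 0.17), the adhesion molecule Icam1 (0.81 ± 0.09), the monocyte chemokine Ccl2 (1.06 ± 0.20), the neutrophil chemokine Cxcl1 (0.83 ± 0.16) and the NF-kB cofactor Nfkbiz (0.62 ± 0.10), in the values without those barcodes. Ccl2, Cxcl1 and Nfkbiz were not called with all barcodes, where they stood at 0.69 ± 0.30, 0.67 ± 0.21 and 0.52 ± 0.10. Cxcl2, also a neutrophil chemokine, was lower (-1.39 ± 0.26).

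Immediate early genes, a list that also covers the response of cells to dissociation, had 5 called higher and 1 lower of 27 (median 0.27). Atf3, a stress-induced transcription factor, differed by 0.70 ± 0.09, Fosl2 by 0.85 ± 0.13, Socs3 by 0.87 ± 0.20, and the heat shock protein Hsph1 by -0.71 ± 0.11. No gene was called among 18 for endoplasmic reticulum folding (median 0.13), 12 of complement, 11 of senescence and cell cycle or 15 of the fascia and adventitial progenitor genes (median 0.13). Without the barcodes rich in other types, 1 fascia gene, Creb5, was called at 0.59 ± 0.06, and 1 complement gene, Cfd, which encodes complement factor D, was called lower at -1.45 ± 0.16.

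Of the proteases, Adamts9 (1.29 ± 0.30) and Adamts4 (1.08 ± 0.27), both aggrecanases, were called higher of 17. Adamts4 reached 29.2 CPM at most in members, and Adamts9 was not called without the barcodes rich in other types (1.02 ± 0.34, adjusted p = 0.0656), while Adamts1 was called there (0.63 ± 0.11, higher in 6 of 6 rats). Of class 3 semaphorins and their receptors, Sema3e (1.76 ± 0.31) and Plxna4 (0.78 ± 0.19) were called of 11. Without those barcodes neither call held, since Plxna4 stood at 0.54 ± 0.15, under the limit of 1.5 times, and Sema3e was not tested, while Sema3d was called (0.61 ± 0.12). Of 27 collagen and fibrillar matrix genes only Fmod, fibromodulin, was called, at 2.78 ± 0.46 and 3.29 to 19.1 CPM, and it was not tested without those barcodes.

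Of the genes lower in members, Wfdc1 was lower in 6 of 6 rats (-1.16 ± 0.18), at 39.9, 27.2, 58.1, 11, 110 and 60.1 CPM in members and 85.9, 57.7, 130, 69.7, 131 and 170 CPM in Pi16 Clec3b fibroblasts. Mdk, the growth factor midkine (-1.0 ± 0.19), C1qtnf5 (-0.72 ± 0.15), Fahd2a (-0.62 ± 0.13) and the epoxide hydrolase Ephx1 (-0.61 ± 0.17) were also lower. C1qtnf5 and Ephx1 were not called without the barcodes rich in other types, at -0.58 ± 0.14 and -0.51 ± 0.14, under the limit of 1.5 times. Of 10 macrophage markers, 9 were called lower, also without the barcodes rich in acinar, islet or mesothelial genes. Their summed level was 7.46 to 572 CPM in members and 11.4 to 3343 CPM in Pi16 Clec3b fibroblasts. Lyve1, Cxcl2 and Hmox1, the heme oxygenase (-1.04 ± 0.22), are also macrophage genes, and the part of macrophage RNA in their lower values was not tested.

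**Figure D4:**
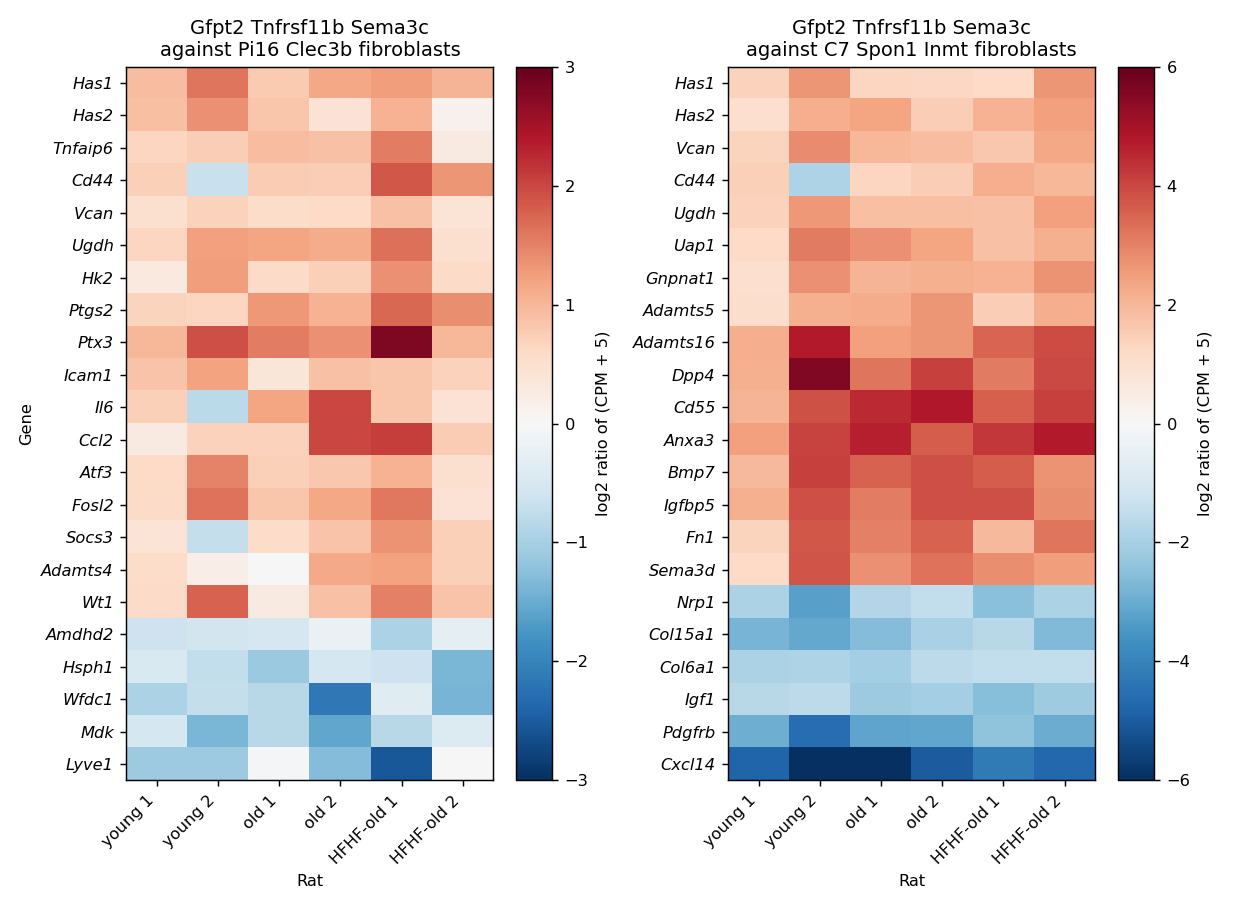
Log2 ratio of CPM between members and Pi16 Clec3b fibroblasts (left) or C7 Spon1 Inmt fibroblasts (right) in each rat, for genes named in the text. Barcodes rich in other cell types are left out. A constant was added to both CPM values, which draws genes of low level closer to no difference than the text gives. Has1 has a positive ratio in every column of both panels, as do Ugdh and Has2.

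The comparison with C7 Spon1 Inmt fibroblasts gave larger differences. Of 11554 genes tested, 1760 were called (15.2%), 909 higher (7.87%) and 851 lower (7.37%) in members, and 1823 of 11013 (16.6%), 854 higher (7.75%) and 969 lower (8.80%), without the barcodes rich in other types. These shares over all genes are the background for the counts of listed genes against this class. As above, the call describes how evenly a difference recurred. Scaling by library size alone moved the split to 634 higher and 1361 lower, with a median over all genes of -0.22.

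Of the fascia and adventitial progenitor genes, 14 of 16 were higher in members and none lower, with a median of 2.15 (all genes -0.01). Dpp4, the surface peptidase CD26 that marks adventitial progenitors, stood at 270, 163, 289, 270, 268 and 306 CPM in members and 60.5, 5.65, 30.8, 11.4, 31.1 and 14.6 CPM in C7 Spon1 Inmt fibroblasts, a log2 difference of 3.57 ± 0.32. Cd55, which protects cells from complement, stood at 639, 190, 709, 735, 782 and 1138 CPM against 161, 48.1, 37.4, 24.7, 74.8 and 62.9 CPM (3.75 ± 0.36). Members were above the comparator in every rat for both.

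Igfbp5, a binding protein of insulin-like growth factors (3.11 ± 0.22), Efhd1, a mitochondrial calcium-binding protein (3.58 ± 0.32), Anxa3, an annexin (4.24 ± 0.37), Bmp7, a bone morphogenetic protein (3.76 ± 0.42), fibronectin Fn1 (2.62 ± 0.30), Creb5 (2.39 ± 0.21) and fibrillin Fbn1 (1.57 ± 0.14) were further members of that list. Outside it, Wfdc21 (8.0 ± 0.31), the heparan sulfate sulfotransferase Hs3st5 (4.91 ± 0.33), the growth-associated protein Gap43 (4.49 ± 0.35), Cmahp (4.45 ± 0.43), Dact2, a modulator of WNT and TGF-beta signals (3.82 ± 0.31), and the prostaglandin and steroid reductase Akr1c3 (3.75 ± 0.48) had the largest differences. Mesothelial markers summed to 113 to 216 CPM in the comparator, and their part in Wfdc21 is given by the 99.2% of UMIs above.

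Genes lower in members were led by Cxcl14, a chemokine, at 1.08, 2.95, 2.09, 4.11, 1.27 and 0.439 CPM against 161, 449, 466, 273, 112 and 137 CPM, a log2 difference of -6.80 ± 0.21. Igfbp3, which carries insulin-like growth factors in serum, was at 26.7, 8.10, 67.2, 24.7, 20.1 and 24.3 CPM against 1344, 1702, 2631, 1209, 971 and 832 CPM (-5.45 ± 0.20). For both genes the highest rat in members lay below the lowest rat in the comparator. The Notch effector Heyl (-5.49 ± 0.21), Chi3l1 (-5.29 ± 0.17), the monooxygenase Fmo2 (-5.07 ± 0.24), Adamtsl2 (-4.93 ± 0.39), the collagen Col6a5 (-4.90 ± 0.41), the ion channel Asic2 (-4.85 ± 0.28), Gdf10 (-4.65 ± 0.18) and Trabd2b (-4.58 ± 0.28) followed.

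Of hexosamine genes, 4 of 15 were higher and none lower. Uap1 stood at 1207, 365, 1175, 938, 1149 and 1403 CPM in members and at 564, 147, 228, 192, 410 and 323 CPM in the comparator (2.06 ± 0.19), higher in members in every rat. Gnpnat1 (2.04 ± 0.21), Ugdh (1.82 ± 0.17) and Ugp2, which makes UDP-glucose (0.70 ± 0.14), were the others. Of 9 hyaluronan genes, 4 were higher, namely Has1, Has2 (1.88 ± 0.21), Vcan (1.84 ± 0.16) and Cd44 (1.59 ± 0.29, in 5 of 6 rats, with young 2 at 6.63 against 42.4 CPM), and 1 was lower, the hyaluronidase Tmem2 (-1.94 ± 0.16). Vcan stood at 208, 70.0, 274, 214, 703 and 346 CPM in members and at 87.5, 31.1, 84.4, 59.8, 278 and 67.5 CPM in the comparator. The HFHF-old members were highest with all barcodes. Without those rich in other types, members stood at 234, 281, 377, 266, 902 and 355 CPM, and old and HFHF-old rats overlapped.

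ADAMTS proteases and their inhibitors were divided, with 3 higher and 4 lower of 18, beside 7.87% higher and 7.37% lower of all genes. Adamts16 was higher (3.52 ± 0.37), while Adamts9 (-2.01 ± 0.30) and Adamts12 (-1.48 ± 0.17) were lower. Semaphorins and their receptors were divided too, with 3 higher and 4 lower of 11. The ligand Sema3d (2.59 ± 0.26) and the receptor Plxna4 (2.83 ± 0.24) were higher, and the receptors that bind class 3 semaphorins, Nrp1 (-2.21 ± 0.22), Nrp2 (-2.44 ± 0.14) and Plxnd1 (-2.04 ± 0.20), were lower. Nrp1 stood at 71.5, 28.7, 56.0, 69.2, 62.5 and 76.6 CPM in members and 297, 707, 253, 208, 449 and 303 CPM in the comparator. In a list of osteoprotegerin ligands and related receptors, only Tnfrsf12a was called of 5, at 1.5 ± 0.22 and 8.10 to 25.3 CPM. It is the receptor of TWEAK and not a partner of osteoprotegerin. Tnfsf11, the gene of RANKL, had no UMI in members of any rat.

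Of collagen and matrix genes, 6 were higher and 11 lower of 27. Col12a1, which lies along collagen fibrils, was higher (1.88 ± 0.23), as was Col8a1 (1.83 ± 0.26). The basement membrane collagens Col4a1 (-2.02 ± 0.27) and Col15a1 (-2.63 ± 0.21) and the microfibrillar Col6a1 (-1.84 ± 0.15) were lower. Col15a1 stood at 58.7, 20.6, 30.7, 39.8, 82.4 and 14.5 CPM against 463, 529, 268, 159, 324 and 120 CPM.

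Of WNT, BMP and FGF genes, 6 of 21 were higher, such as Fgf2 (1.55 ± 0.12) and the WNT antagonist Sfrp4 (1.77 ± 0.21), and 7 were lower, such as the WNT agonist Rspo3 (-3.10 ± 0.36) and Sfrp1 (-2.54 ± 0.25). Of 20 cytokine genes, the alarmin Il33 (2.02 ± 0.24) and the prostaglandin E synthase Ptges (2.33 ± 0.25) were among 3 higher, and Ccl11 (-2.76 ± 0.78), Il1r1 (-1.67 ± 0.15), Vcam1 (-1.64 ± 0.23) and Cxcl12 (-1.06 ± 0.31) among 7 lower. Igf1, the growth factor, was lower (-2.15 ± 0.14), within 3 higher and 5 lower of 13 genes of its axis. Of 19 lipid genes, 5 were lower and none higher, among them the fatty acid transporter Cd36 (-2.70 ± 0.32), lipoprotein lipase Lpl (-1.80 ± 0.20) and the adipogenic factor Pparg (-1.65 ± 0.19). Lpl stood at 1375, 295, 578, 974, 417 and 1291 CPM in members and 4033, 2965, 2868, 3488, 2335 and 2582 CPM in the comparator, without overlap.

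Of 5 genes of stellate and pericyte-like cells, 4 were lower, with Pdgfrb, the PDGF receptor of mural cells, at 4.63, 1.47, 9.53, 6.85, 7.30 and 12.3 CPM in members and 69.3 to 146 CPM in the comparator (-3.52 ± 0.16). Smooth muscle markers had 3 lower of 5. No gene of endoplasmic reticulum folding was called of 18. Senescence and cell cycle genes had 1 higher, the cyclin Ccnd1 (1.12 ± 0.21), and 2 lower of 12, among them the cell cycle inhibitor Cdkn2b (-2.49 ± 0.22). Of all genes tested, 7.87% were higher and 7.37% lower.

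Age was examined by comparing members of old and young rats. Of 12069 genes, 1 was called (0.00829%), as was 1 of 11485 without the barcodes rich in other types (0.00871%). It was AC127784.2, a gene known by a clone name and named here after its values were seen, at 0.0635, 0, 25.8, 21.2, 19.7 and 14.7 CPM (8.46 ± 0.64, edgeR adjusted p = 0.0481). It was near 0 in both young rats and similar in the 4 aged rats. This was not particular to members, since the other fibroblasts stood at 0.0665, 0, 24.6, 33.0, 13.8 and 16.1 CPM, with a difference of changes of -0.13. At an unadjusted p under 0.05 there were 332 genes, and DESeq2 called 9. A level summed over members cannot tell fewer members with a transcript from less of it in each.

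The summed islet and acinar markers of young 2, given above, lowered the CPM of its other genes. Both old rats were above both young rats for 21.5% of genes and below for 4.51%, and without the barcodes rich in other types for 16.2 and 21.8%. Values from here to the end of this comparison are without those barcodes, and young 2 then rested on 38 cells. Cd9, a tetraspanin of the cell membrane, stood at 65.4 and 59.7 CPM in young, 319 and 345 CPM in old and 280 and 234 CPM in HFHF-old rats. The old rats were above both young rats by 2.46 ± 0.26 on the log2 scale, which missed the threshold (edgeR adjusted p = 0.0513; 2.09 ± 0.31 and adjusted p = 1 with all barcodes).

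Other genes that met the naming rule, which ranked p with all barcodes, were Sfrp2, a WNT antagonist, at 2.65 and 11.9 CPM in young and 63.1 and 26.6 CPM in old rats (3.76 ± 0.65), Sned1, a matrix protein, at 15.8 and 11.9 against 51.8 and 48.0 CPM (1.79 ± 0.29), and Crispld2, a secreted protein, at 31.3 and 35.8 against 97.0 and 81.5 CPM (1.52 ± 0.25). Lower values in old rats were found for Rgs6 and Rgs7, which speed G protein inactivation (-1.86 ± 0.34 and -2.64 ± 0.40), for Enah, an actin regulator (-1.80 ± 0.34), for Nrep (-2.02 ± 0.48) and for C1qtnf6 (-2.19 ± 0.62). Enah stood at 201 and 146 CPM in young and 50.2 and 47.2 CPM in old rats. None of these genes passed the test, with adjusted p of 0.217 or more. Pla2g2a, a secreted phospholipase, had one of the smallest p with all barcodes (3.46 ± 0.42, 12.1 and 13.3 CPM against 179 and 171 CPM), and stood at 2.29, 2.98, 35.2 and 8.58 CPM in the same rats without the barcodes rich in other types. Its difference there was of like size with a larger error (3.36 ± 1.05, adjusted p = 0.809).

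Has1 stood at 674 and 448 CPM in young and 714 and 601 CPM in old members (0.28 ± 0.29) and Adamts5 at 1022 and 615 against 678 and 799 CPM (-0.09 ± 0.39). Both overlapped between the groups. Hk2 was lower in both old rats, at 190 and 170 against 83.1 and 83.2 CPM (-1.06 ± 0.23, adjusted p = 0.488), and so was the protease gene Adamts16, at 184 and 128 against 30.6 and 48.0 CPM (-1.99 ± 0.32, adjusted p = 0.219). The orphan nuclear receptor Nr4a3 was higher, at 73.3 and 44.8 against 257 and 200 CPM (1.92 ± 0.30, adjusted p = 0.219).

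No gene of any list was called between old and young members, so the lists are given by direction. Of 12 complement genes, 10 were above both young rats in both old rats, beside 16.2% of all genes, with a median log2 difference of 0.61. C4b stood at 51.7 and 77.6 CPM in young and 151 and 105 CPM in old members (1.15 ± 0.31) and C2 at 5.15 and 11.9 against 38.9 and 19.7 CPM (2.37 ± 0.49). Of 27 immediate early genes, 18 were above (median 0.59), among them Nr4a1 at 236 and 361 against 674 and 626 CPM (1.22 ± 0.29). Below both young rats, beside 21.8% of all genes, were 9 of 18 ADAMTS proteases and inhibitors (median -0.55) and 12 of 26 collagen and matrix genes (median -0.24). With all barcodes these counts were 9 of 12, 14 of 27, 0 of 18 and 1 of 27, beside 21.5% of all genes above and 4.51% below.

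The diet was examined by comparing members of HFHF-old and old rats, and no gene of 12069 passed the test (0%). At an unadjusted p under 0.05 there were 327 genes, DESeq2 called 12, and without the barcodes rich in other types edgeR again called 0 of 11485 (0%). Both HFHF-old rats were above both old rats for 21.1% of genes and below for 13.4%, and without those barcodes for 16.9 and 14.4%. Acinar markers had a median log2 difference of 1.52, islet markers -1.75 and mesothelial markers -2.08 between these groups, with all barcodes.

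Of 9 hyaluronan genes, 6 were above both old rats in both HFHF-old rats (median log2 difference 0.96), as were 6 of 15 hexosamine genes (median 0.27), beside 21.1% of all genes. None passed the test. Without the barcodes rich in other types these were 3 of 8 and 4 of 15, beside 16.9% of all genes. Has1 stood at 513 and 485 CPM in old and 909 and 1127 CPM in HFHF-old members (0.96 ± 0.51), and Ugdh at 639 and 716 against 1605 and 1644 CPM (1.20 ± 0.55). Hk2 stood at 59.3 and 69.9 against 143 and 181 CPM (1.26 ± 0.34), with young 1 at 170 and young 2 at 47.9 CPM. Without those barcodes Hk2 stood at 190 and 170 CPM in young, 83.1 and 83.2 CPM in old and 180 and 184 CPM in HFHF-old rats. Gfpt1, the isoenzyme of Gfpt2, differed by 0.33 ± 0.22 without those barcodes. Adamts5 stood at 489 and 645 against 691 and 1754 CPM (1.02 ± 0.64), and 11 of 18 ADAMTS genes and inhibitors were above (6 of 18 without those barcodes).

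Of 20 cytokine, chemokine and NF-kB target genes, 9 were above both old rats and 2 below (median 0.40), beside 21.1 and 13.4% of all genes. None passed the test. Of these 20 genes, 8 were above and 4 below without the barcodes rich in other types, beside 16.9 and 14.4% of all genes. Ccl2, the monocyte chemokine, stood at 153 and 186 CPM in old and 552 and 831 CPM in HFHF-old members (1.96 ± 0.49). Icam1 stood at 44.2 and 56.2 against 175 and 177 CPM (1.76 ± 0.41), and Nfkbiz at 116 and 83.6 against 253 and 405 CPM (1.63 ± 0.43). The values without the barcodes rich in other types were 1.86, 1.73 and 1.55, with adjusted p of 0.637, 0.415 and 0.415. For each gene the HFHF-old rats were also above both young rats. Pi16 Clec3b fibroblasts moved the same way without overlap, with all barcodes. Ccl2 stood there at 111 and 51.8 CPM in old and 130 and 491 CPM in HFHF-old rats. Icam1 stood at 34.8 and 32.4 against 79.4 and 110 CPM, and Nfkbiz at 105 and 60.3 against 115 and 234 CPM. The higher values of these genes were thus not particular to members. In members the NF-kB inhibitor Tnfaip3 stood at 3.02 and 4.80 against 13.3 and 20.0 CPM (2.07 ± 0.45).

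Of 27 immediate early genes, 15 were above both old rats and 0 below (median 0.50), and of 18 genes for endoplasmic reticulum folding 12 and 0 (median 0.43). The chaperone Hspa5 stood at 349 and 343 against 643 and 538 CPM (0.72 ± 0.42). Without the barcodes rich in other types the counts above were 15 of 27 and 13 of 18, beside 16.9% of all genes. Antioxidant genes had 6 above and 6 below of 24 (median -0.15), beside 21.1 and 13.4% of all genes, and 5 and 6 of 24 without those barcodes. They were thus divided, with Gclc, the rate-limiting enzyme of glutathione synthesis, at 33.0 and 37.7 against 68.3 and 107 CPM (1.23 ± 0.36) and the mitochondrial superoxide dismutase Sod2 at 96.9 and 150 against 228 and 384 CPM (1.24 ± 0.38) among those above. Those below were the peroxiredoxins Prdx1, Prdx2, Prdx5 and Prdx6, thioredoxin Txn1 and the transcription factor Nfe2l2, with Prdx2 at 160 and 225 against 142 and 110 CPM (-0.65 ± 0.39). Of 27 collagen and matrix genes, 12 were above and 2 below (median 0.29).

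The genes of smallest p that met the naming rule were Dot1l, a histone methyltransferase, at 26.0 and 19.2 against 59.3 and 62.7 CPM (1.35 ± 0.27), Sec24a, a coat protein of vesicles leaving the endoplasmic reticulum, at 67.7 and 75.4 against 209 and 202 CPM (1.46 ± 0.32), the scaffold protein Homer1 (1.25 ± 0.30) and Spsb4 (1.35 ± 0.34). Lower in HFHF-old rats was Irf7, a driver of interferon genes, at 181 and 183 against 76.9 and 67.1 CPM (-1.39 ± 0.28). Its values without the barcodes rich in other types, 241 and 217 against 96.8 and 68.7 CPM, gave -1.48 ± 0.26. Cav1 (-2.10 ± 0.36), Nkain4 (-2.70 ± 0.60), Cdh11 (-1.28 ± 0.30) and Fxyd3 (-2.47 ± 0.64) also had small p, but moved to -0.79, untested, -0.28 and -0.18 without those barcodes.

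**Figure D5:**
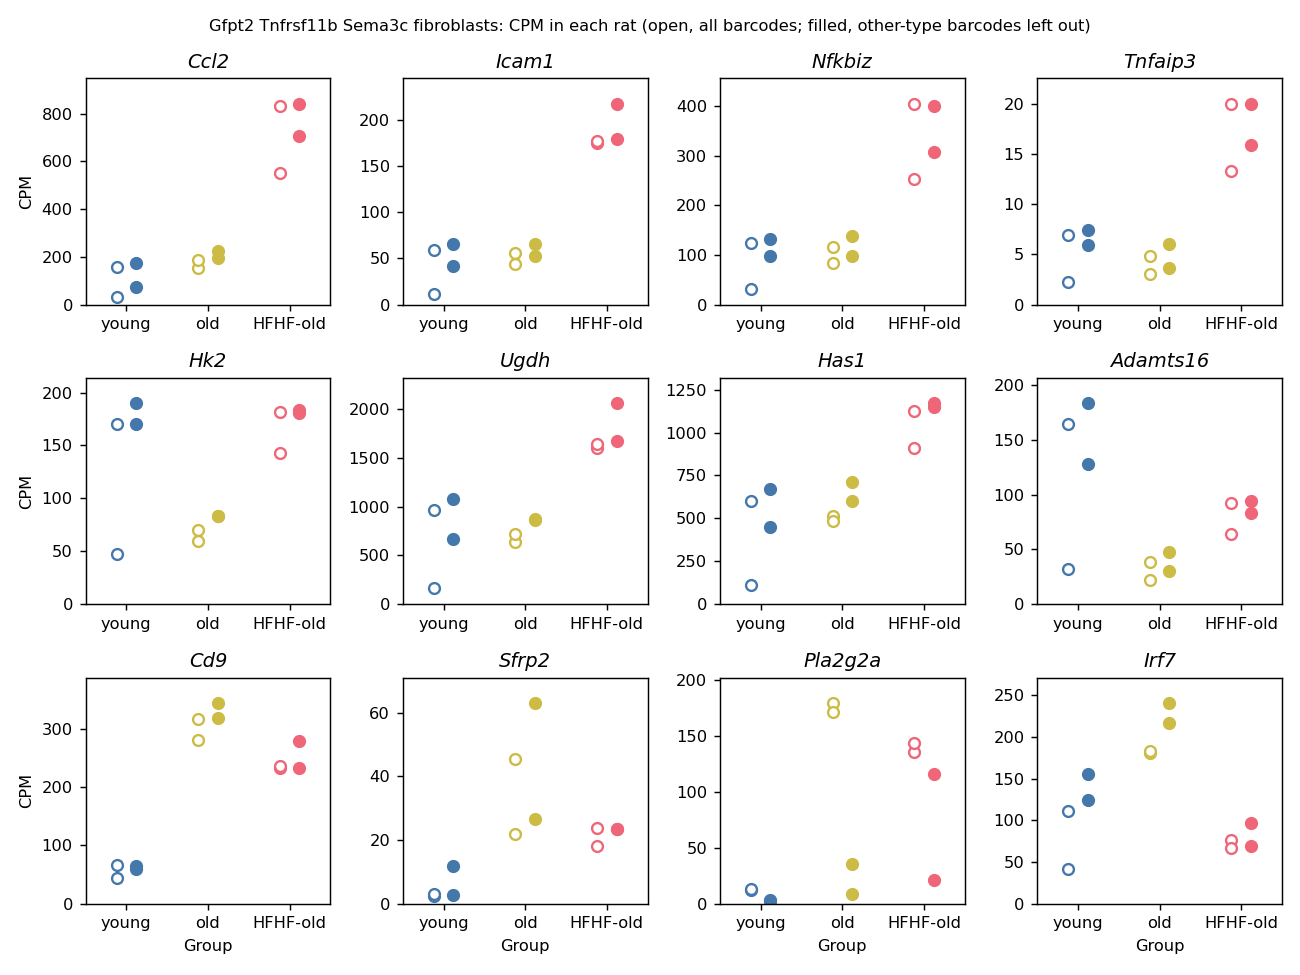
CPM of 12 genes in members of each rat, with all barcodes (open) and without those rich in other cell types (filled). Ccl2, Icam1, Nfkbiz, Hk2 and Ugdh are higher in both HFHF-old than in both old rats, and Irf7 is lower.

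Whether a change with age or diet differed between members and all other fibroblasts of the same rats was tested as an interaction. These other fibroblasts pooled several classes, whose mix differed between rats. Without the barcodes rich in other types, C7 Spon1 Inmt fibroblasts were 584 of 2338, 38 of 244, 488 of 771, 571 of 1808, 323 of 431 and 175 of 325 of them. The part of this mix in the differences below was not tested. For old against young, 10 of 13675 genes were called (0.0731%), and 16 of 12925 without the barcodes rich in other types (0.124%). Only Prap1 and Srgn were called in both. On simulated data with known changes, the same test also called 17 unchanged genes with all barcodes. It called 16 unchanged genes without those rich in other types. The 10 genes included markers of macrophages (Tmem176a, Tmem176b) and of mesothelial barcodes (Nkain4), and with mesothelial-marker barcodes alone left out edgeR called 0. Before adjustment 858 genes had p under 0.05 there, and no adjusted p was below 0.105. Prap1 (-4.97), Cyp7b1 (-1.88) and Srgn (1.72) differed by about as much there as with all barcodes, while Tmem176a (0.57), Tmem176b (0.61) and Id1 (0.41) differed by less.

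Called without the barcodes rich in other types was Col6a6, a chain of collagen VI, at 14.0 and 20.9 CPM in young and 7.97 and 7.72 CPM in old members, against 43.9 and 69.1 and then 165 and 96.4 CPM in the other fibroblasts. Its difference of changes was -2.51 ± 0.30 on the log2 scale (adjusted p = 0.0116), and it was higher in old rats only outside the class. Adamts9 (-2.32 ± 0.29), Thbs1 (-1.77 ± 0.30), the lipolysis inhibitor G0s2 (-1.51 ± 0.25) and the glutamate receptor Gria3 (-1.66 ± 0.27) had the same sign, and Mpzl2 the opposite one (2.20 ± 0.35). Thbs1 stood at 67.9 and 26.9 CPM in young and 58.8 and 67.8 CPM in old members, and at 36.0 and 27 and then 136 and 107 CPM in the other fibroblasts.

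For HFHF-old against old, 0 of 13675 genes were called with all barcodes (0%; 578 at an unadjusted p under 0.05, and 5 by DESeq2), and 7 of 12925 without those rich in other types (0.0542%). Ccl2 was among the 7, with a difference of changes of 1.58 (adjusted p = 0.0296). It stood at 197 and 223 CPM in old and 704 and 842 CPM in HFHF-old members, and at 142 and 187 and then 158 and 297 CPM in the other fibroblasts. The values in members did not overlap between the groups, while those in the pooled other fibroblasts did. Pi16 Clec3b fibroblasts alone stood at 120 and 51.7 CPM in old and 162 and 491 CPM in HFHF-old rats, also without overlap. Higher Ccl2 in both HFHF-old rats was thus not particular to members.

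Nr4a3 (1.78 ± 0.22, adjusted p = 0.0166), Nr4a2 (2.13) and the Notch target Hes1 (2.61 ± 0.41) were also called. Nr4a3 stood at 257 and 200 CPM in old and 255 and 304 CPM in HFHF-old members, and at 494 and 323 and then 119 and 206 CPM in the other fibroblasts. The HFHF-old rats were below both old rats outside the class, and overlapped with them within it. Hes1 rested on HFHF-old 1, with 253 CPM in members beside 20.9 CPM in HFHF-old 2. The remaining 3 were the epithelial keratin Krt18, Sorcs1 and the islet hormone Ppy, each at under 1 CPM in members of HFHF-old 2. With all barcodes Ccl2 (1.64 ± 0.35) and Nr4a3 (1.85 ± 0.24) differed by about as much, with adjusted p of 0.576 and 0.159.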

How the data were processed

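Pancreas cells of 6 rats (3 groups of 2) were measured, and the rat was the unit of replication. The deposited values are integer UMI counts per gene and barcode in the filtered matrices that the authors made with Cell Ranger (5.0.0 in the file headers) on rat build Rnor 6.0 per the submitters' processing notes. All 32883 genes were kept. Barcodes with under 200 genes or over 25% mitochondrial UMIs were left out. The members and gene lists were chosen with earlier results of these data known.

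For each rat the UMIs of a class were added up and tested with edgeR 4.0.16 (TMM, filterByExpr, quasi-likelihood test, Benjamini-Hochberg adjustment over all genes tested) in R 4.3.3. A call needed an adjusted p below 0.05 and a difference of over 1.5 times in either direction. Age and diet were fitted over all 6 rats without covariates, and classes and interactions with the rat as a block. The SE is the absolute log2 fold change over the square root of F. Genes read by the rule (15) were not tested. Nothing says whether rats were littermates, housed together or processed on the same day. A batch therefore cannot be told apart from age or diet. Shares were tested by exact permutation with scipy 1.17.1. Scripts were tested on simulated data with known changes. For old against young members with all barcodes, 1.56, 16.9 and 75.8% of genes changed 2, 4 and 16 times were called, and 9 unchanged genes. In the old against young interaction the shares were 10.8, 63.5 and 91%, with 17 unchanged genes called. Without the barcodes rich in other types they were 32.8, 76.9 and 92.5%, with 16 unchanged genes called. DESeq2 1.42.0, other scaling, no filter, the replicate block, thinning to 2000 UMIs and leaving out each rat were alternatives. Thinning left out barcodes under 2000 UMIs, and classes for shares and calls were assigned anew from the thinned counts.

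Named genes were the label markers, up to 10 called genes per direction with the largest fold among those with at least 20 CPM, the same direction throughout and a level no lower than in non-fibroblasts, filled to 5 by the smallest p, and from each list those with the smallest p. Genes named beyond this rule, such as those from the comparisons without barcodes rich in other types, were chosen after their values were seen.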

Additional observations from a re-analysis of the deposited data

Results flagged for a closer look

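The old against young change differed between members and the other fibroblasts of the same rats, by the interaction test in edgeR, for 10 genes with all barcodes. Of these, 8 had a more positive difference in members. Scd, a desaturase of fatty acids, had the largest value, 10.85 on the log2 scale, and rested on young 1, where the other fibroblasts stood at 88.5 CPM and those of the other rats at 1.06 CPM or less. Prap1 (-5.04) rested in the same way on old 2, with 626 CPM in the other fibroblasts.

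Tmem176b (1.92) and Tmem176a (1.91), which are abundant in macrophages, the mitochondrial carrier Ucp2 (1.56) and the iron carrier Tf (1.99) were lower in both old than in both young rats in fibroblasts outside the class. The proteoglycan Srgn (1.68) stood at 10.0, 19.9, 13.0 and 35.6 CPM in young and old members and at 36.6, 92.8, 16.2 and 39.8 CPM in the others, where young and old rats overlapped. Id1 (2.71), an inhibitor of helix-loop-helix factors, and Nkain4 (2.62) were higher in old members, at 25.6 and 69.9 CPM and at 116 and 61.0 CPM. Without the barcodes rich in other cell types both had 8.58 CPM or less in members. Cyp7b1 (-1.96), an oxysterol hydroxylase, stood at 20.2, 9.57, 7.67 and 9.59 CPM in members and at 57.3, 27.9, 99.7 and 78.5 CPM in the others. Its value without those barcodes was -1.71, with an adjusted p of 0.228 in edgeR. Macrophage markers differed in the same contrast with a median of 1.21, and their part in these genes was not tested.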

How the results depend on the processing

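The tests of age and diet are limited by 2 rats per group and by the 1358068 and 1459124 UMIs of members in young 2 and old 2. Calls between old and young members (1) became 9 with DESeq2, 235 without a filter on low counts, 0 with at least 3 UMIs required of the class genes, and 0 to 2 when a rat was left out. Calls between HFHF-old and old (0) became 12 with DESeq2, 248 without a filter and 0 to 6 when a rat was left out. Calls against Pi16 Clec3b fibroblasts (371) became 864 without a filter, 225 with cells thinned to 2000 UMIs, 225 without mesothelial-marker and acinar or islet rich barcodes, and 210 to 308 when a rat was left out, with 220 without young 1, 210 without old 2 and 230 without HFHF-old 1. With library sizes alone there were 255. Calls against C7 Spon1 Inmt fibroblasts (1760) became 1103 when thinned and 1385 to 1762 when a rat was left out. The old against young interaction (10) became 39 with library sizes alone, 33 with DESeq2, 257 without a filter, 0 without mesothelial-marker barcodes, 16 without both kinds of barcode and 3 to 70 when a rat was left out. The HFHF-old against old interaction (0) became 5 with DESeq2, 144 without a filter, 7 without both kinds of barcode and 0 to 15 when a rat was left out. In these fits a lone rat was assumed to vary like the other groups. The cause of these shifts was not tested beyond the fewer rats or genes that each setting uses.

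The share of members in HFHF-old against old rats kept its direction, from 1.26 to 2.18 when a rat was left out. The share in old against young rats turned to -1.10 without young 2, to -0.13 without old 1 and to -0.31 without both kinds of barcode, over a range of -1.10 to 1.77. Of 298 gene results, 289 kept their direction. Adamts5 in old against young members (0.00) turned to -0.0097 without a filter, -0.0062 with the replicate block and -0.088 without both kinds of barcode. It ranged from -0.54 (without young 2) to 1.01 when a rat was left out and was -0.19 without old 2, while Has1 ranged from -0.12 (without young 2) to 1.28. In the old against young interaction, Mpzl2 ranged from -1.26 (without young 1) to 1.76 and Prap1 from -5.10 to 3.21 (without old 2). Ppy in the HFHF-old against old interaction (-1.76) turned to 1.69 without both kinds of barcode and ranged from -2.19 to 3.84 (without HFHF-old 1). Without mesothelial-marker barcodes, Cav1 against Pi16 Clec3b fibroblasts turned to -0.027, Fxyd3 in HFHF-old against old to 0.67 and Nkain4 in that interaction to 1.07, and without both kinds Nkain4 to 0.95 and Id1 to 0.13.

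The replicate numbers did not pair the rats: deviations of same-numbered rats correlated at -0.18, -0.41 and 0.09. With the replicate block, 0 genes were called between old and young and 0 between HFHF-old and old members. Without the rat as a block in the pairing of classes, 5 were called against Pi16 Clec3b and 1032 against C7 Spon1 Inmt fibroblasts.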
